A study of Homo sapiens with 8 samples.

Results

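The RNAs described here are 9 long noncoding RNAs that have been tied to stress and growth, namely UCA1, NEAT1, MALAT1, H19, GAS5, SNHG1, SNHG12, SNHG15, and ZFAS1. They were taken from the gene table by matching the listed symbols to Ensembl identifiers, and all 9 were found among the 60230 genes of the table. UCA1 was selected on its fold changes against DMSO in these libraries, so its values are given as a description without a test, while the other RNAs were listed for their known ties to stress and growth, though with earlier results of these data known. The edgeR filter on low counts retained 13404 genes, among them 7 of the 9, whereas H19 and SNHG15 did not pass.

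HepG2 is an established human hepatocellular carcinoma line, and the derivative used here overexpresses CYP3A4, a cytochrome P450 enzyme of drug metabolism. All cells, controls included, carried this overexpression and were grown in medium with 3 μg/mL blasticidin, the drug that selects for it. The promoter that drives CYP3A4 and the clonality of the line are not given in the sources used here. Control cells received 0.2% DMSO, and treated cells received compound 4, 5, or 6 for 24 h, each at its own IC50 concentration. The concentrations of the 3 compounds therefore differed. All of them are antioxidants of plastic production. Compound 4, labelled metylcresol, is a pair of tert-butyl-methylphenols joined by a methylene bridge. Compound 6, labelled cyclohexil, has the same bridge and cyclohexyl in place of tert-butyl. Compound 5, labelled tetrabut, is an ethane that carries a pair of di-tert-butyl-hydroxyphenyl groups. Each of the 4 groups had 2 replicates, which the labels number as day 1 and day 2. The label of replicate 1 of compounds 4 and 5 carries the word merged and a pair of S numbers, without saying what was merged.

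The 8 libraries held between 9472261 and 13308975 counts on genes, and 3 counts, the smallest amount taken as measurable, corresponded to 0.234 to 0.313 CPM (library totals scaled by TMM). This limit covers counting error only. The hepatocyte markers set for the check were present in every library, with ALB between 12600 and 18500 CPM. Their summed level, to which ALB contributed most, ranged over 39500 to 41400 CPM in the controls, 30900 to 31000 for compound 4, 32900 to 33000 for compound 5, and 31500 to 37900 for compound 6, so this sum lay below both controls in all treated libraries. Single markers did not all follow it, and TTR stood at 99.3 and 74.6 CPM in the controls and at 126 and 149 CPM with compound 4. The mitochondrial share of counts was 4.91% and 5.12% in the controls and 5.31% to 6.21% in treated libraries. PTPRC and CD3E of leukocytes and DCN of fibroblasts were at 0 in all libraries. The summed level of the 4 fibroblast markers, nearly all of it PDGFRB, ranged over 1.64 to 2.66 CPM in the controls, 6.32 to 8.72 for compound 4, 2.67 to 4.58 for compound 5, and 3.86 to 5.43 for compound 6. The summed level of the 4 leukocyte markers, most of it CD68, ranged over 29.9 to 42 CPM in the controls, 58.6 to 60.1 for compound 4, 37.1 to 41.1 for compound 5, and 49.4 to 54.2 for compound 6. The sum of the 3 endothelial markers was 0.904 to 1.28 CPM in the controls, 1.56 to 1.62 for compound 4, 0.864 to 1.28 for compound 5, and 1.88 to 2.06 for compound 6. Their part in the results was not tested. In such bulk RNA, fewer cells of a type and less RNA per cell cannot be told apart. CYP3A4 itself was called higher with compound 5 (log2 fold change 0.97, edgeR adjusted p = 7.24e-04) and not with compound 4 (0.31, edgeR adjusted p = 0.162) or compound 6 (-0.25, edgeR adjusted p = 0.344).

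Long noncoding RNAs act as RNA and are not translated into a functional protein. NEAT1 and MALAT1 stay in the nucleus. The long NEAT1 transcript builds the paraspeckle, a body that forms under stress, and MALAT1 collects in nuclear speckles, which hold splicing factors. GAS5, SNHG1, SNHG12, SNHG15, and ZFAS1 are small nucleolar RNA (snoRNA) host genes. Their introns yield snoRNAs that guide the modification of ribosomal RNA, while the spliced exons are exported and are often removed by nonsense-mediated decay, a surveillance pathway tied to translation. H19 is an imprinted transcript that is abundant in fetal liver. UCA1 was named after urothelial carcinoma and is known for its high level in several tumours and in drug-resistant cells.

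In brief, UCA1 lay more than an order of magnitude above DMSO with compounds 4 and 5 and less far above it with compound 6. NEAT1 rose with compounds 4 and 5, MALAT1 with compound 4, and ZFAS1 with compound 5. GAS5, SNHG1, and SNHG12 did not pass the test in any comparison, and H19 and SNHG15 were at or near the limit of measurement in every library. UCA1 is left out of the counts of calls. Of the other 6 tested RNAs, 2 were called with compound 4, where 11.9% of all tested genes were called (6.5% higher and 5.42% lower). With compound 5, 2 of 6 were called beside 28.1% of all tested genes (13.9% higher and 14.2% lower). Without DMSO replicate 2, 0 of 6 were called with either compound. With compound 6, 0 of 6 were called by edgeR or DESeq2 beside 4.4% of all tested genes (2.8% higher and 1.6% lower), while unadjusted edgeR p-values under 0.05 were found for NEAT1 (0.00821), MALAT1 (0.0289), and ZFAS1 (0.00692). The comparisons with DMSO share the same 2 control libraries.

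**Figure D1:**
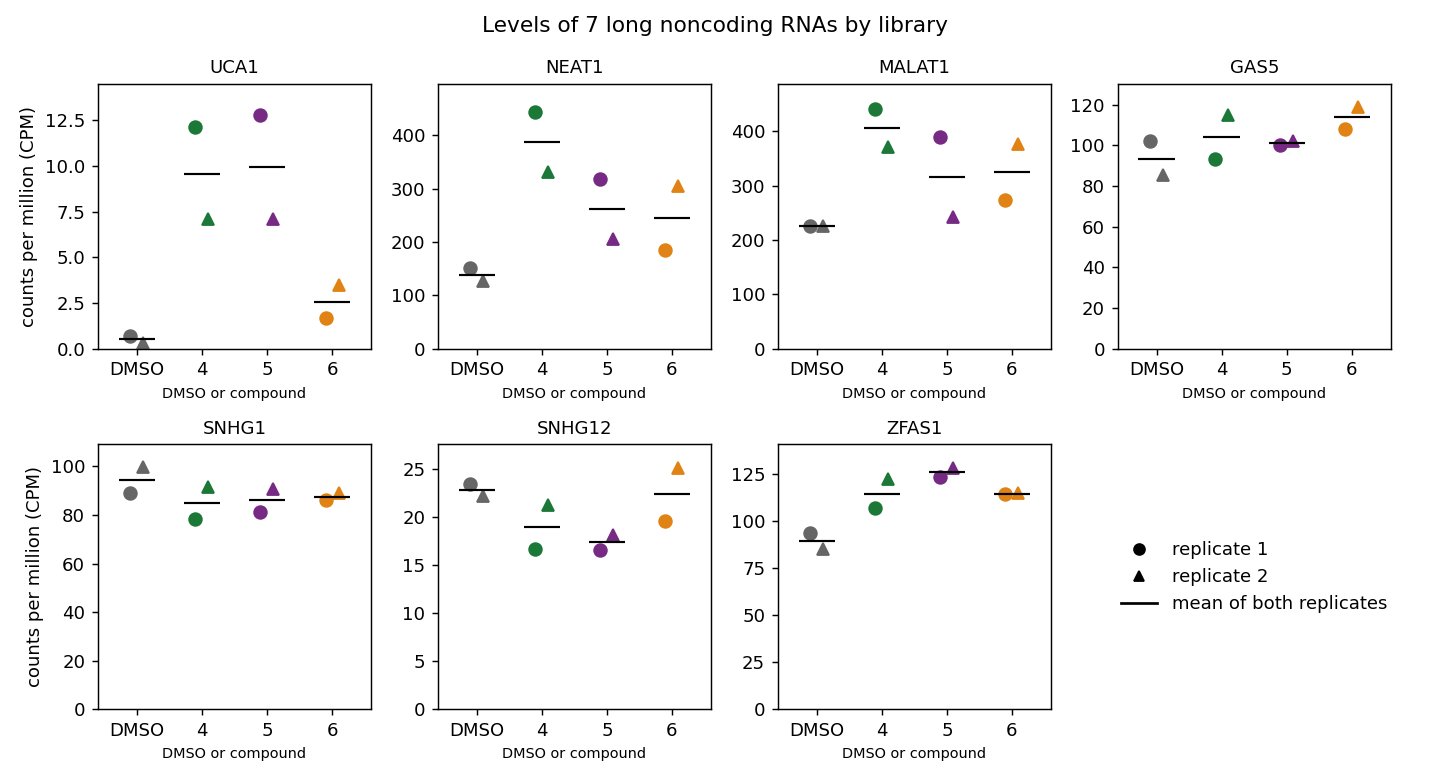
Level in CPM (y axis, from 0) of the 7 RNAs that passed the filter in each library, by treatment (x axis), with circles for replicate 1, triangles for replicate 2, and a line at the mean of both. The treated libraries lie above both DMSO libraries for UCA1, NEAT1, MALAT1, and ZFAS1, and overlap them for GAS5 and SNHG1 with compounds 4 and 5.

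UCA1 (ENSG00000214049) lies on the plus strand at chr19:15828206-15836326 in GRCh38, where GENCODE 29 lists 36 transcripts. The reference transcript UCA1-201 has 3 exons and 2025 bases. The sequences across its splice junctions are shown because they tell the spliced RNA from the genome at this locus. Each line gives 30 bases on either side, 5′ to 3′ on the plus strand, with the downstream exon in capitals. Junction 1 joins position 15829338 to 15831255, and junction 2 joins position 15831356 to 15834636.
UCA1 junction 1: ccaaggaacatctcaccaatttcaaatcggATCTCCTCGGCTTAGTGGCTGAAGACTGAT
UCA1 junction 2: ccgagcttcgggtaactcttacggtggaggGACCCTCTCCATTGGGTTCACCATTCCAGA

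UCA1 was close to the limit of measurement in control cells, with 7 and 4 counts in the DMSO libraries. The exact 95% Poisson intervals of these counts are 2.81 to 14.4 and 1.09 to 10.2. With compound 4, 141 and 91 counts were found. With compound 5, the counts were 140 and 90, and with compound 6 they were 16 and 42. All 6 treated libraries lay above both controls, and both libraries of compounds 4 and 5 lay above both of compound 6.

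On the CPM scale the DMSO libraries of UCA1 lay at 0.689 and 0.329, those of compound 4 at 12.1 and 7.1, those of compound 5 at 12.8 and 7.07, and those of compound 6 at 1.67 and 3.46. The mean level was 18.8 times that of DMSO with compound 4, 19.5 times with compound 5, and 5.04 times with compound 6. Replicate 1 was the higher one with compounds 4 and 5 and the lower one with compound 6. The fitted log2 fold changes were 4.24 (SE 0.54), 4.29 (SE 0.54), and 2.38 (SE 0.64). Since UCA1 was selected on such changes, a high place among the 13404 tested genes follows from the selection and is no support. Ordered from the highest log2 fold change, UCA1 stood at position 17 with compound 4, 24 with compound 5, and 45 with compound 6.

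When each library was left out in turn, the UCA1 change ranged from 3.77 to 4.82 with compound 4, from 3.83 to 4.87 with compound 5, and from 1.74 to 2.96 with compound 6. At this locus LINC01764 runs antisense to UCA1 and shares 9.15% of the 31-base words of UCA1 transcripts, and its own row held 0 counts. The other annotated genes within 20 kb, among them the olfactory receptor gene OR10H1, also held 0 counts in every library. No neighbour of UCA1 could therefore be tested.

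NEAT1 (ENSG00000245532, plus strand, chr11:65422774-65445540) and MALAT1 (ENSG00000251562, plus strand, chr11:65497688-65506516) lie next to each other on chromosome 11. Both genes are single blocks of exon, and both long transcripts end in an unusual way. Instead of a standard poly(A) tail, each carries near its 3′ end an A-rich tract that is known to pair with U-rich tracts into a stabilizing triple helix. The tracts stand in capitals, as TTTTGCTTTT and AAAAAGCAAAA, within transcripts NEAT1-202 at chr11:65445470-65445540 and MALAT1-202 at chr11:65506051-65506116, both on the plus strand.
NEAT1 3′ tract: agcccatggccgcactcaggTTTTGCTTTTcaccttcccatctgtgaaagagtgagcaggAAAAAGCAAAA
MALAT1 3′ tract: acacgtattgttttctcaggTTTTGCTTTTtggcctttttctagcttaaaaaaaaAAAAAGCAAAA

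The capitals are separated by 30 bases in NEAT1 and by 25 in MALAT1. The NEAT1 transcript of 22743 bases stops at the A-rich tract, whereas the annotated MALAT1 transcript of 8708 bases runs on for 353 bases. Of 58721 genes with a GENCODE 29 transcript, 3 (0.00511%) held the U-rich word in the 60 bases before the A-rich word on the transcribed strand, and these were NEAT1, MALAT1, and RETREG3. Such a match is a description of letters and not a measured structure. Libraries were made from isolated mRNA, so the capture of these RNAs may differ from that of tailed mRNA, and this was not tested.

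NEAT1 rose with compounds 4 and 5, in counts that do not tell its long transcript from its short one. In CPM, the DMSO libraries lay at 151 and 126, those of compound 4 at 444 and 331, those of compound 5 at 318 and 205, and those of compound 6 at 184 and 305. All 6 treated libraries were above both controls. Samples that do not overlap in this direction were found for 27.5% of all tested genes with compound 4, 32.9% with compound 5, and 26.3% with compound 6. The log2 fold change was 1.48 with compound 4 (SE 0.26, edgeR adjusted p = 0.00496) and 0.91 with compound 5 (SE 0.25, edgeR adjusted p = 0.0222). With compound 6 the value of 0.82 (SE 0.25) did not pass the cutoff (edgeR adjusted p = 0.0949).

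The NEAT1 call for compound 5 was lost with DESeq2 (adjusted p = 0.0537), and without replicate 1 of compound 5 the log2 fold change was 0.59 (edgeR adjusted p = 0.188). It was also lost without either DMSO library (edgeR adjusted p = 0.0688 and 0.119). For compound 4 the call was lost without DMSO replicate 2 (1.36, edgeR adjusted p = 0.0699). The SD of NEAT1 between replicates was similar in the treated groups, at 79.8 CPM for compound 4, 80.4 for compound 5, and 85 for compound 6. The NEAT1 change with compound 6 was 1.16 without replicate 1, where it was called, and 0.42 without replicate 2, where it was not. That call was also gained without either compound 4 library (edgeR adjusted p = 0.046 and 0.0436), without the filter (4.98e-09), and with only the compared groups (0.0311).

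MALAT1 rose with compound 4. The DMSO libraries stood at 226 CPM each, those of compound 4 at 441 and 371 CPM, those of compound 5 at 390 and 242 CPM, and those of compound 6 at 273 and 376 CPM. Every treated library exceeded the controls, by the narrowest margin in replicate 2 of compound 5. The log2 fold change was 0.85 with compound 4 (SE 0.21, edgeR adjusted p = 0.0248). The values with compound 5 (0.49, SE 0.21, edgeR adjusted p = 0.103) and compound 6 (0.52, SE 0.21, edgeR adjusted p = 0.187) did not pass. The call for compound 4 was lost without either DMSO library (edgeR adjusted p = 0.122 and 0.148) and without replicate 1 of compound 4 (0.71, edgeR adjusted p = 0.0621). With compound 5 the MALAT1 value was 0.79 without replicate 2 of that compound (edgeR adjusted p = 0.0208) and 0.13 without replicate 1 (edgeR adjusted p = 0.699). MALAT1 calls with compounds 5 and 6 were gained without the filter (edgeR adjusted p = 3.12e-04 and 5.61e-04) and with only the compared groups (0.0192 and 0.0458).

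NEAT1 and MALAT1 varied together from library to library. Across the 8 libraries their log2 CPM values correlated at r = 0.96, which is a description over points that share treatment and library. Within compounds 4 and 5 both RNAs, like UCA1, were higher in replicate 1, and within compound 6 all 3 were higher in replicate 2. Replicate 1 of compounds 4 and 5 are the libraries labelled as merged, and the part of this merging was not tested. Among the 12692 tested genes that averaged 1 CPM or more, NEAT1 was the third most similar to MALAT1 in profile, after TMEM192 (r = 0.978) and TTC39A (r = 0.967).

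**Figure D2:**
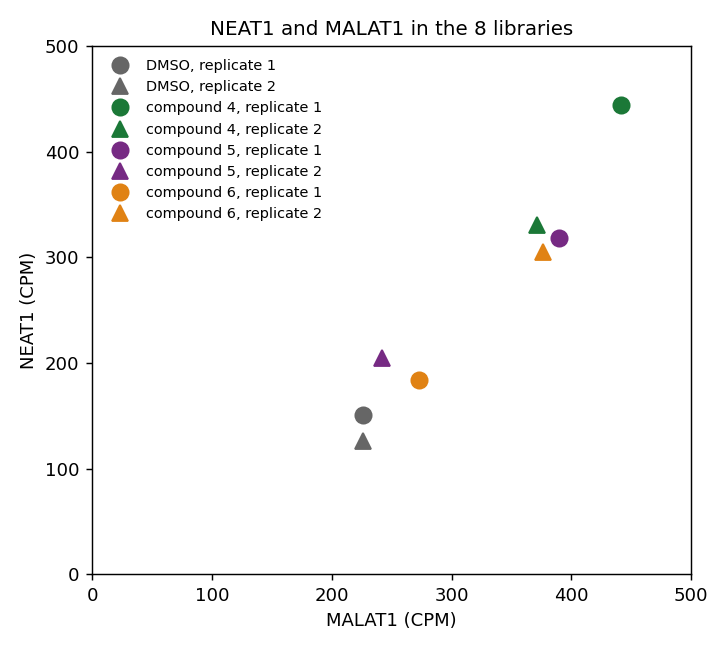
NEAT1 level (y axis, CPM) against MALAT1 level (x axis, CPM) in the 8 libraries, coloured by treatment, with circles for replicate 1 and triangles for replicate 2. Both DMSO libraries sit at the lower left (151 and 126 CPM of NEAT1), and replicate 1 of compound 4 sits at the upper right (444 CPM of NEAT1 and 441 CPM of MALAT1).

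The mRNAs of proteins that build these nuclear bodies were listed as well. Of 18 paraspeckle proteins, all tested, 0 were called higher and 4 lower with compound 4, where 5.42% of all tested genes were called lower. These were HNRNPR (-0.68, edgeR adjusted p = 0.00219), HNRNPH3 (-0.42), TARDBP (-0.41), and NUDT21 (-0.41), which bind RNA. The median log2 fold change of the list was -0.20, beside 0.00 for all tested genes. With compound 5, 2 of 18 were called beside 28.1% of all tested genes, since DAZAP1 rose (0.42, edgeR adjusted p = 0.0106) and PSPC1, a core paraspeckle protein, fell (-0.57, edgeR adjusted p = 0.0127), at a list median of -0.08 beside -0.03 for all genes. With compound 6, where 4.4% of all tested genes were called, HNRNPR alone of the list was called and fell (-0.50, edgeR adjusted p = 0.0236), at a list median of -0.19 beside 0.00. NONO and SFPQ, the proteins that bind NEAT1 to start a paraspeckle, did not pass the test with any compound, and their changes lay between -0.30 and -0.02.

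Of 18 nuclear speckle proteins, calls were made for 1 (compound 4), 4 (compound 5), and 0 (compound 6, with 5 at an unadjusted edgeR p under 0.05 and 1 by DESeq2), beside 11.9%, 28.1%, and 4.4% of all tested genes. SRSF1, a splicing factor, fell with compound 4 (-0.38, edgeR adjusted p = 0.0429), a call that was lost in every fit that left out a library. With compound 5, SRSF2 (-0.41), SRSF3 (-0.43), and SRSF10 (-0.32) fell, and SF3B1, a subunit of the U2 complex, rose (0.34). The medians of this list were -0.17, -0.02, and -0.14 with compounds 4, 5, and 6, beside 0.00, -0.03, and 0.00 for all genes.

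H19 (ENSG00000130600, minus strand, chr11:1995176-2001470) was at the limit of measurement. The DMSO libraries held 0 and 6 counts, compound 4 held 1 and 2, compound 5 held 5 and 3, and compound 6 held 5 and 3. A change was not detectable at this depth, and no fold is given. H19 is usually thought to be expressed in HepG2, and whether its near-empty row comes from these cells or from the quantification was not tested. The adjacent IGF2, the growth factor of the same imprinted region, lay at 1620 and 1810 CPM in the controls and between 1230 and 1520 CPM in treated cells, with no call (log2 fold changes of -0.39, -0.25, and -0.31). Of the 16 genes listed as the H19 imprinted network, 12 were tested, and GRB10, an adaptor that dampens insulin signalling, rose with all 3 compounds. GRB10 stood at 38.5 and 42.2 CPM in DMSO and at 53.9 to 83.9 CPM in the treated libraries, with log2 fold changes of 0.55 (edgeR adjusted p = 0.0326), 1.05 (6.92e-04), and 0.75 (0.0189). The only other call in this list was MEST with compound 5 (-0.34, edgeR adjusted p = 0.0478, and 0.06 under the replicate block). The network thus had 1, 2, and 1 calls among 12 genes, beside 11.9%, 28.1%, and 4.4% of all tested genes, and its medians were -0.20, -0.20, and -0.05 beside 0.00, -0.03, and 0.00.

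The 5 snoRNA hosts of the selection are GAS5 (ENSG00000234741, minus strand, chr1:173863900-173868882), SNHG1 (ENSG00000255717, minus strand, chr11:62851988-62855914), SNHG12 (ENSG00000197989, minus strand, chr1:28578538-28583132), SNHG15 (ENSG00000232956, minus strand, chr7:44983023-44986961), and ZFAS1 (ENSG00000177410, plus strand, chr20:49278178-49295738). On the host strand GENCODE 29 lists 7 genes of the type snoRNA inside SNHG1, 5 inside SNHG12 (SNORA16A is entered under a pair of identifiers at the same start), 1 inside SNHG15, 3 inside ZFAS1, and 0 inside GAS5. Their own rows held 0 counts in all libraries, and the values below are those of the host gene rows. Annotated exons cover 3756 of the 3927 bases of SNHG1, and its transcripts share 2.28% of their 31-base words with SNORD22. Reads of snoRNAs or introns may therefore be counted in a host row, and this was not tested.

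Host genes of this kind are known to start with a run of pyrimidines, the 5′-terminal oligopyrimidine (TOP) motif that ties translation to growth signals. The first 35 bases of a transcript from 4 hosts are shown for this reason, 5′ to 3′ on the gene strand, with the leading run of C and T in capitals. Each is the transcript whose 5′ end is shared by most transcripts that start with at least 5 pyrimidines, with the longer run at ties.
GAS5 (GAS5-226, first base chr1:173867989): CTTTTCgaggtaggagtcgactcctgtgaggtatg
SNHG1 (SNHG1-204, first base chr11:62855881): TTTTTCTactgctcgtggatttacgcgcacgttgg
SNHG12 (SNHG12-209, first base chr1:28581873): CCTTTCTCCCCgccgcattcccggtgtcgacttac
ZFAS1 (ZFAS1-204, first base chr20:49278642): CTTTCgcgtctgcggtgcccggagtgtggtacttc

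The runs are 6, 7, 11, and 5 bases long. The SNHG1 run starts with T, and its 5′ end belongs to 1 transcript only. Any run of C and T was taken, whichever letter came first, so a run shown or counted here need not be a TOP motif. Transcripts starting with at least 5 pyrimidines were 7 of 29 for GAS5, 3 of 25 for SNHG1, 7 of 17 for SNHG12, 3 of 10 for ZFAS1, and 0 of 10 for SNHG15. Among all 206694 transcripts of GENCODE 29 the share was 4.47%. Annotated 5′ ends are often incomplete, so a start without the run says only that these letters are not at that end.

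ZFAS1 rose with compound 5. Its CPM values were 93.5 and 85.2 in the DMSO libraries, 107 and 122 in those of compound 4, 123 and 128 in those of compound 5, and 114 and 115 in those of compound 6. All treated libraries lay above both controls, with less spread between treated replicates than for NEAT1 or MALAT1. The log2 fold change with compound 5 was 0.49 (SE 0.11, edgeR adjusted p = 0.00725). The values for compound 4 (0.35, SE 0.11, edgeR adjusted p = 0.0555) and compound 6 (0.36, SE 0.11, edgeR adjusted p = 0.0863) were just outside the cutoff.

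The ZFAS1 call was lost without DMSO replicate 2 (edgeR adjusted p = 0.0639) or without replicate 2 of compound 5 (edgeR adjusted p = 0.055). With compound 4 it was gained when genes needed at least 10 counts in every library (edgeR adjusted p = 0.0467) and without replicate 1 of that compound (0.44, edgeR adjusted p = 0.0292), while the value was 0.27 without its replicate 2 (edgeR adjusted p = 0.176). With compound 6 a ZFAS1 call was gained without either compound 4 library (edgeR adjusted p = 0.0427 and 0.0357). ZFAS1 shares 36.8% of its 31-base words with other genes annotated in GENCODE 29, more than any other RNA of the selection. ZNFX1, which overlaps ZFAS1 on the opposite strand, accounts for 9.21%. ZNFX1 itself did not pass the test, with log2 fold changes of 0.02, 0.27, and 0.19 for compounds 4, 5, and 6.

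GAS5 did not pass the test with any compound. The DMSO libraries lay at 102 and 85.6 CPM, those of compound 4 at 93.5 and 115, those of compound 5 at 100 and 102, and those of compound 6 at 108 and 119. The groups overlapped for compounds 4 and 5, and both libraries of compound 6 were above the controls. The log2 fold changes were 0.16 (95% interval -0.13 to 0.44, edgeR adjusted p = 0.484), 0.11 (-0.17 to 0.40, edgeR adjusted p = 0.552), and 0.28 (0.00 to 0.57, edgeR adjusted p = 0.259).

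SNHG1 did not pass either, at 88.9 and 99.9 CPM for the controls, 78.4 and 91.5 for compound 4, 81.4 and 90.7 for compound 5, and 86.1 and 88.9 for compound 6. The log2 fold changes of -0.15, -0.13, and -0.11 had edgeR adjusted p-values of 0.444, 0.418, and 0.656. Their 95% intervals ran from -0.41 to 0.11, from -0.39 to 0.13, and from -0.37 to 0.15, so changes of 1 log2 unit lay outside each interval.

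SNHG12 was the least abundant of the tested hosts, at 23.4 and 22.2 CPM for the controls, 16.7 and 21.3 for compound 4, 16.6 and 18.1 for compound 5, and 19.6 and 25.1 for compound 6. Both libraries of compounds 4 and 5 were below both controls, as were those of 27.1% and 37.3% of all tested genes, and compound 6 overlapped them. The log2 fold changes of -0.26, -0.39, and -0.02 had edgeR adjusted p-values of 0.345, 0.0997, and 0.961. With compound 5 the fall passed the cutoff when library size alone scaled the counts (-0.50, edgeR adjusted p = 0.0415) and when only the compared groups were fitted (-0.37, edgeR adjusted p = 0.0426).

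SNHG15 was absent or nearly so from these counts. DMSO replicate 2 held 1 count, replicate 1 of compound 6 held 2, and the other 6 libraries held 0, which allows up to 3 counts each. No change was detectable at this depth, and whether the row reflects the cells or the quantification was not tested.

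Levels of different RNAs were compared per kilobase of annotated exon in DMSO, with exons of GENCODE 29 although the counts were made on a later GENCODE release. ZFAS1 was the highest with a mean of 39.8 CPM per kilobase, followed by GAS5 (25.8), MALAT1 (25.6), and SNHG1 (25.1). The libraries of the last 3 overlapped, at 23.6 to 28, 25.5 to 25.6, and 23.7 to 26.6 CPM per kilobase, so their order is not resolved. NEAT1 (6.09) and SNHG12 (5.35) followed, with libraries at 5.54 to 6.64 and 5.2 to 5.49 CPM per kilobase, and UCA1 (0.123) was last of the 7. With the longest transcript as the length, GAS5 (55.1) and SNHG1 (34.1) stood above MALAT1 (25.9), and SNHG12 (11.4) above NEAT1 (6.1), so these orders depend on the length used. The NEAT1 gene also gives a short transcript (NEAT1-203, 3524 bases), the counts do not tell it from the long form, and a shorter length would raise the NEAT1 value, so the place of NEAT1 in this order is not resolved.

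Against each other, the 3 compounds were given at different concentrations, and the values are set side by side for that reason. For UCA1 the log2 difference was 0.05 between compounds 5 and 4 (SE 0.35), 1.91 between compounds 5 and 6, and 1.86 between compounds 4 and 6. Of the other 6 tested RNAs, 0 were called between compounds, where edgeR called 13.9% of all tested genes for compound 5 against 4, 9.91% for 5 against 6, and 0.0448% for 4 against 6. Among these 6, unadjusted edgeR p-values under 0.05 belonged to NEAT1 in 5 against 4 (0.0446) and 4 against 6 (0.0233) and to SNHG12 in 5 against 6 (0.0489), and DESeq2 called 0 of 6. For NEAT1 the difference was -0.57 between compounds 5 and 4 (interval -1.12 to -0.02, edgeR adjusted p = 0.146) and 0.66 between compounds 4 and 6 (interval 0.11 to 1.22, edgeR adjusted p = 0.457). For SNHG12 it was -0.37 between compounds 5 and 6 (interval -0.74 to 0.00, edgeR adjusted p = 0.18). Compounds 4 and 6 share the methylene-bridged bisphenol named above and differ in a tert-butyl against a cyclohexyl group. Between them the interval was -0.14 to 0.78 for MALAT1 and -0.24 to 0.23 for ZFAS1, and the missing calls do not show that they act alike.

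Among the 27 other snoRNA host genes listed for comparison, 26 were tested. Compound 4 had 2 higher and 0 lower calls, compound 5 had 3 higher and 4 lower, and compound 6 had 0 (6 at an unadjusted edgeR p under 0.05, and 1 by DESeq2), beside 11.9%, 28.1%, and 4.4% of all tested genes called in either direction. With compounds 4 and 5 these counts were near or below those shares, and nothing is read from them about host genes as a group. The list medians of 0.05, 0.01, and -0.01 stood beside 0.00, -0.03, and 0.00 for all genes. SNHG7 rose with compounds 4 (0.67, edgeR adjusted p = 0.014) and 5 (0.56, edgeR adjusted p = 0.017), with control levels of 54.1 and 58.2 CPM that went to 80.8 and 98.4 CPM and to 77.9 and 87.5 CPM. EIF4A2, which encodes a translation initiation helicase, rose with compound 4 (0.44, edgeR adjusted p = 0.0236). With compound 5, WDR43 (0.42) and SNHG16 (0.35) rose and SNHG4 (-0.41) and SNHG11 (-0.71, edgeR adjusted p = 0.0119) fell. SNHG14 (-0.46) and SNHG30 (-0.61) were called lower too, and these calls were lost with the replicate block (edgeR adjusted p = 0.0536 and 0.0597).

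The machinery around the hosts was listed too. None of the 11 tested box C/D snoRNP proteins and assembly factors, which build the particles that snoRNAs work in, passed the edgeR test with any compound, at medians of -0.10, -0.19, and -0.09 beside 0.00, -0.03, and 0.00 for all genes. Unadjusted edgeR p-values under 0.05 were found for 2, 3, and 1 of them, and DESeq2 called 1, 0, and 0. Of 16 nonsense-mediated decay factors, UPF2 (-0.46, edgeR adjusted p = 0.048) and PNRC2 (-0.67, edgeR adjusted p = 0.00453) fell with compound 4. With compound 5, PNRC2 (-0.52) and RBM8A (-0.39) fell and CASC3 (0.53) rose, and 0 were called with compound 6 (4 at an unadjusted edgeR p under 0.05, and 1 by DESeq2). The 2, 3, and 0 calls among 16 genes stand beside 11.9%, 28.1%, and 4.4% of all tested genes, and the list medians were -0.10, 0.00, and -0.14. PNRC2 links decay to decapping, and CASC3 and RBM8A belong to the exon junction complex.

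Of 15 genes listed because their mRNAs are known to start with a TOP motif, most of them translation factors, 14 had a positive log2 fold change with compound 4, 14 with compound 5, and 13 with compound 6. Calls numbered 1, 2, and 0 of 15, beside 11.9%, 28.1%, and 4.4% of all tested genes. EEF2, the elongation factor that moves the ribosome along, rose with compound 5 (0.44, edgeR adjusted p = 0.0107) and was called with compound 4 (0.38, edgeR adjusted p = 0.036, and 0.0528 with the replicate block). EIF4B, an initiation factor, rose with compound 5 (0.34, edgeR adjusted p = 0.0237). With compound 6, edgeR called 0, DESeq2 called 1, and 1 had an unadjusted edgeR p under 0.05. The medians of 0.14, 0.13, and 0.09 stood beside 0.00, -0.03, and 0.00 for all genes.

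The list of other long noncoding RNAs tied to stress held calls in both directions. Of 26 listed, 24 were matched to a gene and 16 were tested. Compound 4 had 3 higher and 2 lower calls, compound 5 had 4 of each, and compound 6 had 1 of each, beside 11.9%, 28.1%, and 4.4% of all tested genes called in either direction. The list medians were 0.10, -0.04, and 0.15, beside 0.00, -0.03, and 0.00 for all genes. LUCAT1, a transcript known from smoke-exposed airway cells, rose with all 3 compounds, from 1.77 and 2.88 CPM in DMSO to 8.72 and 6.24, 13.1 and 11.9, and 6.78 and 9.47 CPM. Its log2 fold changes were 1.66 (edgeR adjusted p = 0.00516), 2.40 (3.01e-04), and 1.79 (0.0102).

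MIR22HG, the host of a microRNA, rose with compounds 4 (1.14, edgeR adjusted p = 0.0161) and 5 (1.62, edgeR adjusted p = 0.00123). LINC-PINT rose with compound 4 (1.17, edgeR adjusted p = 0.00739), and CYTOR (0.68) and NORAD (0.56) rose with compound 5. MIR210HG, the host of the hypoxia-induced miR-210, fell with compounds 4 (-1.11, edgeR adjusted p = 0.025) and 5 (-2.0, edgeR adjusted p = 0.00106), with control levels of 5.51 and 5.42 CPM that went to 2.57 and 2.5 CPM and to 1.65 and 1.1 CPM. LINC00261, a transcript of endodermal tissues, fell with all 3 compounds (-0.73, -0.50, and -0.70, with edgeR adjusted p-values of 0.00968, 0.0266, and 0.0278). OIP5-AS1 (-0.52) and TP53TG1 (-1.11) fell with compound 5.

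TEAD factors with their coactivators YAP and TAZ, known regulators of UCA1, were listed with their target genes. The list also holds VGLL4, LATS1, and LATS2, which act against YAP or TEAD, so higher calls in it need not point the same way. Of 20 genes, 19 were tested, and 3, 8, and 2 were called higher with compounds 4, 5, and 6, against 0 lower in each. Of all tested genes, 6.5%, 13.9%, and 2.8% were called higher. ANKRD1, a classical target, rose with all 3 compounds, from 3.74 and 1.97 CPM in DMSO to 13.9 and 13.3, 8.25 and 9.89, and 7.4 and 12.7 CPM (log2 fold changes 2.28, 1.69, and 1.85, with edgeR adjusted p-values of 0.00165, 0.00361, and 0.0125). AXL, a receptor tyrosine kinase, rose with compounds 4 (1.59) and 5 (1.30), and its call with compound 6 (1.66, edgeR adjusted p = 0.0323) was lost with the replicate block (0.0518).

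CCN1, a matricellular protein, was called with compound 4 (0.98, edgeR adjusted p = 0.0427, and 0.051 with the block) and rose with compound 5 (0.92, edgeR adjusted p = 0.031). CCN2, the other classical target of that family, did not pass with any compound (0.44, -0.22, and 0.41). With compound 5, TEAD3 (0.46), TEAD4 (0.60), LATS2 (0.41), and AJUBA (0.62) rose as well, and AMOTL2 (0.79, edgeR adjusted p = 0.0447) was called without the block and not with it (0.0542). The medians of this list were 0.26, 0.41, and 0.11, beside 0.00, -0.03, and 0.00 for all genes.

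Of the annotated genes within 20 kb of a listed RNA, 15 were tested. Calls were made for 3 of them with compound 4, for 7 with compound 5, and for 1 with compound 6, beside 11.9%, 28.1%, and 4.4% of all tested genes. The widest contrast between a host and its neighbour was at SNHG1. SLC3A2 encodes the heavy chain shared by several amino acid transporters, and its annotated span begins 188 bases from SNHG1 on the opposite strand, so that the genes point away from each other. RefSeq places a start of SLC3A2 at position 62856109, inside the 300 bases around the SNHG1 start, and further starts at 62880896 and 62881699. The counts are per gene and do not tell these starts apart. The sequence at chr11:62855836-62856135 (RefSeq, GRCh38.p14) is shown 5′ to 3′ on the minus strand, in the direction of SNHG1, with the pyrimidine run of SNHG1-204 in capitals.
SNHG1 promoter: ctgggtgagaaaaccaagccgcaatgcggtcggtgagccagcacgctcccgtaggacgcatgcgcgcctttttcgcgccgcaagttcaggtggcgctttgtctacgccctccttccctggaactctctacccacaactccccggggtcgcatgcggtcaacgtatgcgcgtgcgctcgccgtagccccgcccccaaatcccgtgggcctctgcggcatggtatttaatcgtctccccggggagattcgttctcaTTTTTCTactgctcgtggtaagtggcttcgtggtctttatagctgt

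The SLC3A2 level was 237 and 201 CPM in the controls, 473 and 543 for compound 4, 1150 and 1260 for compound 5, and 350 and 514 for compound 6. It rose with every compound, by 1.21 (SE 0.17, edgeR adjusted p = 0.00179), 2.46 (SE 0.18, edgeR adjusted p = 3.71e-05), and 0.98 (SE 0.17, edgeR adjusted p = 0.0125) on the log2 scale. SNHG1 beside it stayed between 78.4 and 99.9 CPM in all 8 libraries. STX5, 19900 bases away, rose with compound 5 (0.65, edgeR adjusted p = 0.0019), and WDR74 was not called.

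FRMD8, beside NEAT1, was not called with any compound (-0.08, -0.25, and -0.14). Near SNHG12, TAF12 (-0.57) and RAB42 (-0.91) fell with compound 5, and near H19, MRPL23-AS1 fell with compound 5 (-0.94, edgeR adjusted p = 0.0232). The genes that overlap a listed RNA on the other strand, ZBTB37 at GAS5, TRNAU1AP at SNHG12, and ZNFX1 at ZFAS1, were not called. The library kit marks strand, and whether strand was used in counting is not given in the sources used here.

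Genes whose profile across the 8 libraries was most like that of each RNA were named by Pearson's r of log2 CPM over the 12692 tested genes that averaged 1 CPM or more. The points share treatment and library, and with so many genes high values are common, so r is a description. For UCA1 these were ZDHHC7 (0.989), CNN2 (0.989), PAWR (0.986), RMDN3 (0.986), and WDR55 (0.986). For NEAT1 they were OPTN (0.979), KIAA0930 (0.974), and SPON2 (0.972), and for ZFAS1 they were CLIC1 (0.991), DEDD (0.985), and CMTM8 (0.974). GAS5 was most like PIGL (0.957), TRIM16L (0.942), and SYN1 (0.934). SNHG1 was most like SLC6A11 (0.972), SRP9 (0.951), and CDC40 (0.938), and SNHG12 was most like B3GALT9 (0.963) and MOB3C (0.959).

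Among the listed RNAs themselves, r of UCA1 was 0.89 with NEAT1, 0.82 with ZFAS1, 0.79 with MALAT1, -0.70 with SNHG1, and -0.68 with SNHG12, again as a description over 8 libraries. For the 3 hosts that were not called, r was 0.65 between SNHG1 and SNHG12, 0.36 between GAS5 and SNHG12, and -0.11 between GAS5 and SNHG1.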

How the data were processed

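RNA of CYP3A4-overexpressing HepG2 cells was sequenced in 8 libraries. According to the submitters' processing notes the authors used FastQC 0.12.0, Salmon 1.5.0, DESeq2 1.38.3, and the build GRCh38. Before deposit, per the methods, the authors made estimated counts (expected counts per gene) with Salmon on GENCODE transcripts and summed them by gene in tximeta. The table has them as whole numbers without normalization. Their column names match the labels, and none was left unmapped.

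The tests used edgeR 4.0.16 on limma 3.58.1 under R 4.3.3. The quasi-likelihood test was used with TMM, filterByExpr, and the 4 groups in a single fit over all 8 libraries. P-values were adjusted by Benjamini-Hochberg over 13404 genes, with calls under 0.05. Standard errors are the log2 fold change over the root of F. An exact permutation test of 2 against 2 libraries cannot reach this cutoff and was not used. The procedure was tested on simulated data. Replicates of a group differed by more than counting noise, most of all with compound 4. The chi-square per degree of freedom was 5.67 for DMSO, 18 for compound 4, 6.55 for compound 5, and 9.35 for compound 6. Nothing in the labels says that replicates came from separate cultures, so p-values measure the spread between these libraries only.

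The RNAs and gene lists were chosen with earlier results of these data known. Named genes are the 9 RNAs, CYP3A4, per list and compound the member with the highest and the lowest change at a mean of at least 1 CPM, tested genes within 20 kb, and the most similar profiles (5 for UCA1, 3 for others). A few genes that this rule names are not reported here. Other called list members, NONO, SFPQ, SLC3A2 levels, and the sequences were chosen after values were seen. Coordinates and transcripts are from GENCODE 29 on GRCh38, and the SNHG1 promoter is from RefSeq (GRCh38.p14). Shared sequence was counted in 31-base words. The authors' index was a later GENCODE release, so exon lengths and shared words may differ from those behind the counts.

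The day 1 and day 2 of the labels were taken as replicate numbers and as the source of the pairing. As a check, the correlation over genes between same-numbered libraries, after subtracting group means, was -0.083 to 0.16. Alternatives were DESeq2 1.42.0, RLE, upper-quartile and library-size scaling, no filter, at least 10 counts in every library, the replicate block, only the compared groups, a cutoff of 0.01, CPM on the library total, the longest transcript as length, and 8 fits without 1 library each.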

Additional observations from a re-analysis of the deposited data

How the results depend on the processing

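The replicate block changed no call among the RNAs other than UCA1, with 2, 2, and 0 called for compounds 4, 5, and 6 against DMSO, and 1549, 3676, and 499 genes called in all. Calls of listed genes that it removed are given beside them. Over the alternatives other than the left-out libraries and the cutoff of 0.01, 134 of 144 values of the 6 tested RNAs other than UCA1 against DMSO kept their direction and their side of the threshold, and none changed sign.

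Of these 6 RNAs, 1 was called with compound 4 at a cutoff of 0.01. With compound 5, 1 was called at that cutoff, 1 with DESeq2, and 4 with only the compared groups. With compound 6, 2 were called without the filter and 2 with only the compared groups. Without the filter, 1 was called between compounds 5 and 4 and 1 between 4 and 6. Leaving out 1 library each gave 0 to 2 for compound 4, 0 to 2 for compound 5 (both 0 without DMSO replicate 2), 0 to 2 for compound 6, and 0 between compounds. With at least 10 counts in every library UCA1 was not in the fit.

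For all genes, a cutoff of 0.01 gave 591, 1809, and 92 calls for compounds 4, 5, and 6, and 279, 282, and 1 for 5 against 4, 5 against 6, and 4 against 6. Without the filter, counts were 1441 for compound 6, 2812 for 5 against 4, 2117 for 5 against 6, and 294 for 4 against 6. With only the compared groups they were 897 for 5 against 4 and 2 for 4 against 6, where DESeq2 gave 75. Leaving out 1 library each gave 335 to 1703 for compound 4, 1680 to 4519 for compound 5, 1 to 1096 for compound 6 (1 without DMSO replicate 2), 111 to 2709 for 5 against 4, 143 to 1875 for 5 against 6, and 0 to 117 for 4 against 6. The causes were not tested beyond the construction of each setting.

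With compound 5, the higher genes made up 49.3% of calls by TMM, 53.1% by RLE, 59.2% by DESeq2, 36.6% by upper quartile, and 33.3% by library size, and the median of all genes moved by -0.09 and -0.1 under upper-quartile scaling and library size. Signs between compounds turned for UCA1 in 5 against 4 (-0.01 with upper-quartile scaling, -0.02 with library size), for SNHG1 in 5 against 4 (-0.05 with both), and for SNHG1 in 5 against 6 (0.01 with DESeq2, 0 without the filter). Leaving out 1 library turned signs of small changes. SNHG12 with compound 6 ranged from -0.21 to 0.17. In 5 against 4, UCA1 ranged from -0.42 to 0.48, GAS5 from -0.18 to 0.12, SNHG1 from -0.09 to 0.15, and SNHG12 from -0.29 to 0.07. In 5 against 6, NEAT1 ranged from -0.25 to 0.52, MALAT1 from -0.42 to 0.26, and SNHG1 from -0.1 to 0.06. In 4 against 6, GAS5 ranged from -0.29 to 0.01, SNHG1 from -0.16 to 0.06, and ZFAS1 from -0.1 to 0.09. Among called genes with the highest or lowest change of their list, LUCAT1, ANKRD1, and HNRNPR with compound 4, and LUCAT1, MIR210HG, ANKRD1, GRB10, and CASC3 with compound 5, kept their call in all 8 fits without a library, while the other such calls, SNHG7 among them, were lost in some. A lone library was assumed to vary like the other groups. At this depth no change could be measured for H19 and SNHG15, and the 7 and 4 counts of UCA1 in DMSO limit its fold.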
